A study of Mus musculus with 79 samples.

Results

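The genes described here are 6 genes known from the membrane and maturation of red cells: Slc4a1, Epb42, Rhag, Rhd, Ermap and Hemgn. They were taken by symbol from the gene table, where each symbol had 1 entry among 35230 genes, and all 6 passed the filter that left 15267 genes for testing (at least 1 RPKM, reads per kilobase of exon scaled to the depth of the library, in at least 2 libraries). Poly(A) RNA was sequenced from 4 mouse ES cell lines: TET KO, which lacks Tet1, Tet2 and Tet3, and its parent TET WT, and DNMT KO, which lacks Dnmt1, Dnmt3a and Dnmt3b, and its parent DNMT WT. Each line was sampled as ES cells kept in 2i/Lif (ESC D0), after 1 and 2 days as epiblast-like cells (EpiLC D1, EpiLC D2), and as embryoid bodies on days 2, 4, 6 and 8 (EB D2 to EB D8), giving 28 groups, 23 of 3 libraries and 5 of 2, and 79 libraries in all. Each genotype is 1 line, so a knockout cannot be told apart from other differences between its line and the parent, and nothing in the labels says that libraries of a group came from separate cultures, and the p-values given here therefore rest on a spread between libraries that may be technical.

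TET enzymes oxidise methylated cytosine in DNA, and DNMT enzymes write and copy that methylation. Embryoid bodies form primitive red cells, whose membrane is tied to a spectrin skeleton through complexes built around band 3 and the Rh proteins. Band 3, the product of Slc4a1, exchanges chloride for bicarbonate and binds ankyrin, and protein 4.2, from Epb42, binds both. Rhag encodes the glycoprotein that brings the Rh complex to the cell surface and carries ammonium, and Rhd encodes its Rh partner, a blood group protein in humans. Ermap encodes an immunoglobulin-like protein of the erythroid membrane that carries the Scianna blood group in humans. Hemgn encodes hemogen, a nuclear regulator of blood cell genes and not a membrane protein, so its place in the set rests on its expression in red cell precursors.

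In the deposited table (GRCm38) Slc4a1 (ENSMUSG00000006574) spans chr11:102348824-102366203 and Epb42 (ENSMUSG00000023216) spans chr2:121017891-121037072, both on the minus strand. Rhag (ENSMUSG00000023926) lies on the plus strand at chr17:40811126-40840754. The other members are on chromosome 4, in different places: Rhd (ENSMUSG00000028825) at chr4:134864536-134896172 on the plus strand, Ermap (ENSMUSG00000028644) at chr4:119175457-119190011 and Hemgn (ENSMUSG00000028332) at chr4:46393989-46413506, both on the minus strand. No other gene of the annotation used overlapped any of them. GATA1, the factor that drives the red cell programme, binds WGATAA, written here as AGATAA or TGATAA. The 250 bases before the RefSeq start (GRCm38.p6) of 5 members were searched for it on both strands, and each held 1 match, against 16.6% of all 32851 such windows. Windows are printed for 2 members that moved together and for Rhd, which did not follow them, 5′ to 3′ on the gene's own strand with the match in capitals.

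Rhag: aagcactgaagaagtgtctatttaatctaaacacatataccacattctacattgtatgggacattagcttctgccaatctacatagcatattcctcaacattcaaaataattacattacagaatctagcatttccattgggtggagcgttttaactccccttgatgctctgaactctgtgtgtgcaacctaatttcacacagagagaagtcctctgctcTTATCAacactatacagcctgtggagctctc
Hemgn: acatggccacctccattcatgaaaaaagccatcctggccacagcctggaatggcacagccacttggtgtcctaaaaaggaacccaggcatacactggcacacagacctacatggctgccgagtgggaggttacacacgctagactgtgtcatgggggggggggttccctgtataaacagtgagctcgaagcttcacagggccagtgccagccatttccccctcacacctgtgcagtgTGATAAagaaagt
Rhd: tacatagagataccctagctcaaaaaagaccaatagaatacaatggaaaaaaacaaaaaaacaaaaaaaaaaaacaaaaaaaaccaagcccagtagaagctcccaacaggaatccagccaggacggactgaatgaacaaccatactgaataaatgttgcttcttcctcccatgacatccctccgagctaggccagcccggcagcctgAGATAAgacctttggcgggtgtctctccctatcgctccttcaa

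The Rhag window is chr17:40810899-40811148, the Hemgn window chr4:46404184-46404433 (inside the interval that the deposited table gives for the gene) and the Rhd window chr4:134864286-134864535. The match lay 31 to 26 bases before the start in Rhag, on the opposite strand, 13 to 8 bases before it in Hemgn and 43 to 38 bases before it in Rhd, both on the gene's strand. In Ermap it lay 67 to 62 and in Epb42 226 to 221 bases before the start, both on the opposite strand. The match is thus shared by Rhd and by the members whose course differed from Rhd's. CCNCNCCC, a motif bound by KLF1, was found in the Hemgn window only, as 4 overlapping matches in a run of G, and 45.9% of all windows held it. CG, the sequence that DNMT enzymes methylate, stood in the windows 2 times in Epb42, 1 time in Rhag, 5 times each in Rhd and Ermap and 3 times in Hemgn, all below the median of 6 over all windows. These matches describe the letters only.

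The libraries held 7.76 to 13.9 M recovered reads each. In the check of the labels, Dnmt1 was 3.63 to 6.49 RPKM in DNMT KO libraries and 39.4 to 63.2 RPKM in DNMT WT libraries. Tet1 was lower in TET KO by its median, 5.18 RPKM against 12.1 RPKM in TET WT. Over all conditions it overlapped, with 2.52 to 13.5 RPKM in TET KO and 2.33 to 26.3 RPKM in TET WT libraries. Tet2 (medians 2.95 and 3.05 RPKM) and Tet3 (1.24 and 1.2 RPKM) did not separate TET KO from TET WT. RNA levels pooled over conditions thus do not settle the TET labels. Dnmt3a and Dnmt3b were lower in DNMT KO by their medians, 2.49 and 17.1 RPKM against 16.1 and 86.5 RPKM in DNMT WT, but overlapped between the lines over all conditions. One library stood apart: in TET WT EB D4 replicate 2 the gene Gm42418 took 15.1% of reads, against at most 2.31% elsewhere, and leaving it out changed no count of members called. Erythroid markers checked the sampled cells: 8 of them, with Gata1, Klf1, Epor, Alas2, Hba-x, Hbb-bh1 and Hbb-y among them, summed to 25.6 to 37.3 RPKM in TET KO and 8041 to 8656 RPKM in TET WT libraries at EB D8, and to 125 to 151 RPKM in DNMT KO and 4437 to 4463 RPKM in DNMT WT libraries. Of these markers only Alas2 was without a read in a whole group, TET KO.

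All members but Rhd reached their highest levels late, at EB D8 of the parental lines. At EB D8 against ESC D0 the same 5 members (Slc4a1, Epb42, Rhag, Ermap and Hemgn) rose in TET WT and in DNMT WT, where 20.3% and 23.3% of all genes tested were called higher. Called means an adjusted p under 0.05 (limma, Benjamini-Hochberg over all genes) with a log2 change of at least 1 on the log2(RPKM + 0.5) scale, which understates the change of low genes. Slc4a1 rose by 6.54 in TET WT (SE 0.109, adjusted p = 2.69e-21) and by 4.66 in DNMT WT (SE 0.122, adjusted p = 3.35e-18), and the other 4 by 3.3 to 4.36 in TET WT and 2.67 to 3.46 in DNMT WT. Apart from Epb42 in DNMT WT, nearly all of the rise came after EB D6: at EB D8 against EB D6 the 5 members rose in both parental lines, where 6.52% (TET WT) and 5.93% (DNMT WT) of genes were called higher. Elsewhere they were low: of 79 libraries 22 held no read of Slc4a1, 50 none of Epb42, 57 none of Rhag, 47 none of Ermap and 54 none of Hemgn. Rhag, Ermap and Hemgn reached 1 RPKM only in the 6 parental libraries at EB D8, Epb42 in 7 libraries and Slc4a1 in 9. They thus passed the filter mainly through groups where they are high. Their calls against those groups are partly built in, and the share of all genes called is not a like measure.

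The knockout lines made little of this rise. In TET KO no member was called at EB D8 against ESC D0 (limma, 28.1% of genes called in either direction), with 1, Rhd, at an unadjusted p under 0.05 and 1 called by voom on recovered reads. In DNMT KO 1 member, Slc4a1, rose (1.21, SE 0.109, adjusted p = 3.46e-09, 16.8% of genes called higher), but it was not called with each library centred on its median, with quantile normalization or with a pseudocount of 1 RPKM. Rhag differed there by 0.79 (SE 0.136, adjusted p = 2.93e-05) and Ermap by 0.31 (SE 0.081, adjusted p = 0.00202), both under the size asked for. Voom on recovered reads called 5 members in this comparison, more than limma did. In limma 4 members had an unadjusted p under 0.05 (Slc4a1, Rhag, Rhd and Ermap, all higher at EB D8). At EB D8 against EB D6, limma called 0 members in TET KO and 0 in DNMT KO (5.9% and 2.16% of genes called in either direction). Unadjusted p was under 0.05 for 2 members in TET KO (Slc4a1 and Rhd) and 3 in DNMT KO (Slc4a1, Rhag and Ermap), all higher at EB D8. Voom called 2 and 1. The share of all genes under these rules is not given here, so these counts stand without a background.

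**Figure D1:**
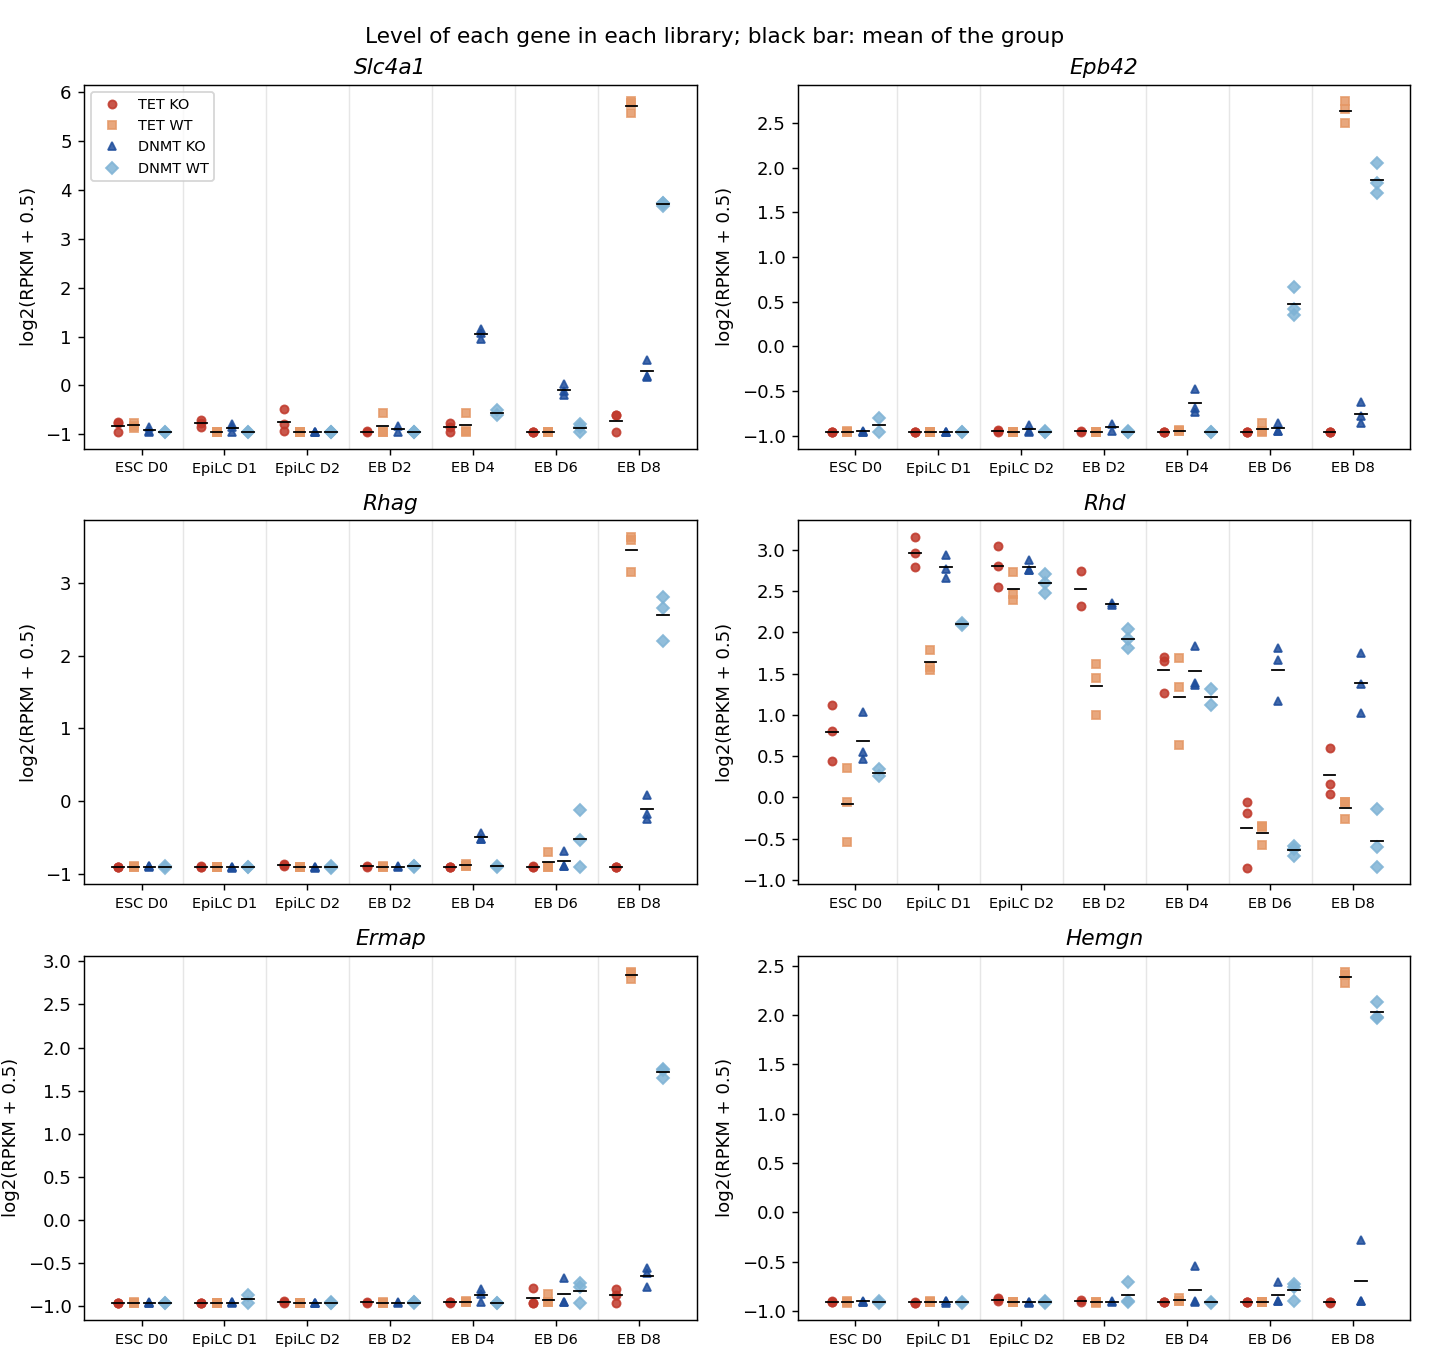
Level of each member in each of the 79 libraries, as log2(RPKM + 0.5), by condition from ESC D0 to EB D8; symbols mark the 4 genotypes and black bars the group means on this scale, and a library without a read is drawn at the value the table gives it, that of 0.9 reads. Slc4a1, Epb42, Rhag, Ermap and Hemgn are high in the TET WT and DNMT WT libraries at EB D8, while Rhd is highest in EpiLC and stays up in DNMT KO embryoid bodies at EB D6 and EB D8.

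At EB D8 both knockouts had lost most of this rise, and TET KO more than DNMT KO. In TET KO 5 of 6 members fell against TET WT (4.14% of all genes were called lower), with a median log2 change of -3.65 over the 6 members against 0.11 over all genes. In DNMT KO the same 5 members fell against DNMT WT (9.1% of all genes called lower) and Rhd rose (9.76% called higher), with a median of -2.64 against 0.01. Of the 5 that fell, all but Slc4a1 passed the filter only with the parental libraries of EB D8. Their falls against these libraries are thus partly built in, and the shares of all genes called are not a like measure. In bulk RNA, fewer erythroid cells and less RNA per erythroid cell cannot be told apart.

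Slc4a1 had the highest RPKM of the members in both parental lines at EB D8. It had 0.154, 0.0151 and 0.158 RPKM in TET KO libraries at EB D8, against 55.7, 54.3 and 47.3 RPKM in TET WT. All TET KO libraries were far below all TET WT libraries, and the group means differed 481-fold (log2 change -6.45, SE 0.117, adjusted p = 1.05e-12, limma). DNMT KO libraries had 0.941, 0.623 and 0.642 RPKM, against 12.8, 12.8 and 12.2 RPKM in DNMT WT. This was a 17.1-fold lower mean (log2 change -3.41, SE 0.117, adjusted p = 7.22e-11), again without overlap. The DNMT KO libraries all had more Slc4a1 than the TET KO libraries, while their parent had less: the DNMT KO effect minus the TET KO effect was 3.03 (SE 0.166, adjusted p = 1.22e-08), and DNMT WT against TET WT differed by -2.01 (SE 0.117, adjusted p = 2.3e-07).

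Epb42, whose product docks on band 3, was listed at 0.0139, 0.0151 and 0.0142 RPKM in TET KO libraries at EB D8, a total of 1 read, against 6.19, 5.82 and 5.14 RPKM in TET WT. On reads the TET WT to TET KO ratio was 1108, with a 95% counting interval of 199 to 43815 that takes reads as independent. The log2 change was -3.59 (SE 0.115, adjusted p = 1.09e-10). DNMT KO libraries had 0.05, 0.149 and 0.0806 RPKM, against 3.64, 3.06 and 2.79 RPKM in DNMT WT, a 33.9-fold lower mean (log2 change -2.62, SE 0.115, adjusted p = 6.05e-10). No knockout library came near a parental one in either pair.

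Rhag followed the same pattern. In TET KO it was listed at 0.0359, 0.0315 and 0.033 RPKM, again 1 read in all, against 11.9, 11.6 and 8.35 RPKM in TET WT, a read ratio of 889 (95% counting interval 159 to 35142) and a log2 change of -4.36 (SE 0.165, adjusted p = 4.9e-10). DNMT KO libraries had 0.347, 0.383 and 0.56 RPKM, against 4.08, 5.82 and 6.49 RPKM in DNMT WT, and its mean was 12.7-fold lower (log2 change -2.66, SE 0.165, adjusted p = 1.44e-08). Among the 5 members that fell, Rhag had the smallest fold in DNMT KO, with 34 reads over its libraries.

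Ermap had 0.0158, 0.0774 and 0.0485 RPKM in TET KO (9 reads in all), against 6.79, 6.81 and 6.41 RPKM in TET WT, a 141-fold lower mean (log2 change -3.71, SE 0.0976, adjusted p = 1.81e-11). In DNMT KO it had 0.0852, 0.152 and 0.181 RPKM, against 2.62, 2.88 and 2.85 RPKM in DNMT WT, a 19.9-fold lower mean (log2 change -2.36, SE 0.0976, adjusted p = 3.18e-10). Hemgn, the nuclear protein of the set, fell like the membrane genes. It was listed at 0.0334, 0.0294 and 0.0307 RPKM in TET KO (1 read), against 4.5, 4.79 and 4.89 RPKM in TET WT, a read ratio of 425 (95% counting interval 75.9 to 16820) and a log2 change of -3.3 (SE 0.148, adjusted p = 2.28e-09). In DNMT KO it had 0.0359, 0.321 and 0.0348 RPKM, against 3.42, 3.87 and 3.44 RPKM in DNMT WT, a 27.4-fold lower mean (log2 change -2.72, SE 0.148, adjusted p = 4.14e-09). Replicate 2 held most of the Hemgn reads of DNMT KO, and it too was below every parental library.

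**Figure D2:**
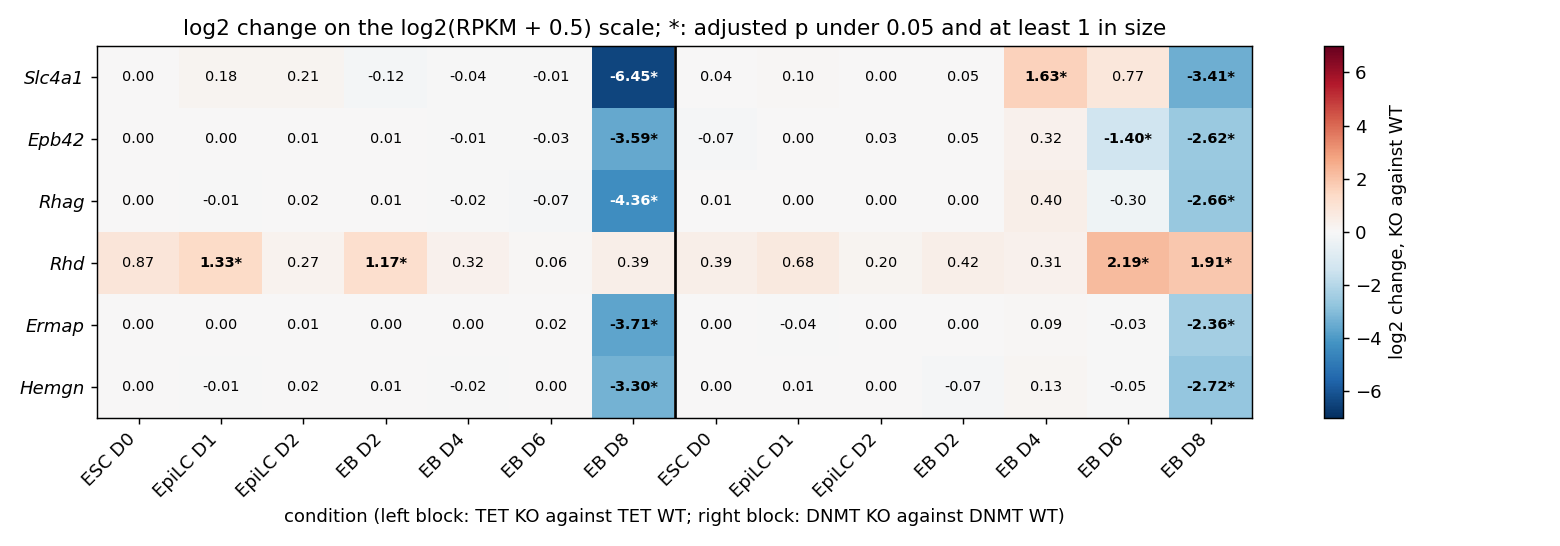
Log2 change of each member (rows) in each knockout against its parent at each of the 7 conditions (columns), on the log2(RPKM + 0.5) scale; red is higher and blue lower in the knockout, and an asterisk marks a called change. The columns of EB D8 hold falls of -2.36 to -6.45 for 5 members, the row of Rhd holds rises only among its called changes, and Slc4a1 rose by 1.63 in DNMT KO at EB D4.

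The difference between the knockout effects at EB D8 was tested for each member, and 4 of 6 were called, all higher (8.96% of all genes were called higher): besides Slc4a1, Rhag (1.7, SE 0.234, adjusted p = 3.86e-05), Rhd (1.52, SE 0.306, adjusted p = 0.000835) and Ermap (1.35, SE 0.138, adjusted p = 2.74e-06). For Epb42 it was 0.97 (SE 0.163, adjusted p = 0.000212), under the size asked for, and for Hemgn 0.58 (SE 0.209, adjusted p = 0.0294). For all members but Rhd, most of this difference lay between the parents on this scale. Slc4a1 and Ermap were called lower in DNMT WT than in TET WT (2 of 6 members, where 1.09% of genes were called lower). Slc4a1 differed there by -2.01. Ermap differed there by -1.13 (SE 0.0976, adjusted p = 5.25e-06), and Rhag, Epb42 and Hemgn by -0.9, -0.77 and -0.36, none of them called.

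Many, but not all, genes of the wider red cell programme fell with the 5 members. Of 25 other red cell membrane and membrane skeleton genes tested (of 26 listed), 13 fell and none rose in TET KO at EB D8, with a median change of -1.09 (4.14% of all genes called lower). Among the large falls were those of Kel, the Kell blood group protease (-4.72), and Art4, which carries the Dombrock blood group in humans (-3.96). In DNMT KO 12 of the 25 fell and 1 rose, with a median of -0.94 (9.1% of all genes called lower and 9.76% higher). Among the large falls, Add2 (beta adducin, which caps the actin of the skeleton) changed by -3.37, Kel by -3.27 and Tmod1 (tropomodulin) by -2.75. The 1 that rose, singled out after its value was seen, was Dmtn, the actin-bundling protein dematin (1.78).

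Of 20 erythroid regulator, haem and globin genes tested (of 21 listed), 18 fell and none rose in TET KO at EB D8 (median -4.03, 4.14% of all genes called lower). In DNMT KO 15 fell and none rose (median -2.27, 9.1% of all genes called lower). The globins Hba-x, Hbb-bh1, Hba-a1 and Hba-a2 led in both, by -6.81 to -8.82 in TET KO and by -4.91 to -5.67 in DNMT KO. Hba-a1 and Hba-a2 are near-identical copies, so the counts given to each are uncertain. Gata1 averaged 0.343 ± 0.166 RPKM in TET KO and 15.5 ± 0.772 RPKM in TET WT, and 1.11 ± 0.069 RPKM in DNMT KO and 10.3 ± 0.0909 RPKM in DNMT WT (SD, n = 3 each). Klf1, the erythroid factor that acts on many of these genes, averaged 0.0868 ± 0.064 RPKM in TET KO and 27 ± 1.44 RPKM in TET WT, and 1.08 ± 0.254 RPKM in DNMT KO and 17.3 ± 1.37 RPKM in DNMT WT (SD, n = 3 each). Epor, the erythropoietin receptor, fell less, by -1.98 in TET KO and -1.64 in DNMT KO. The embryonic globin Hbb-bh1 averaged 11.3 ± 4.5 RPKM in TET KO against 5074 ± 253 RPKM in TET WT, and 59.8 ± 3.92 RPKM in DNMT KO against 3060 ± 24.2 RPKM in DNMT WT (SD, n = 3 each).

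**Figure D3:**
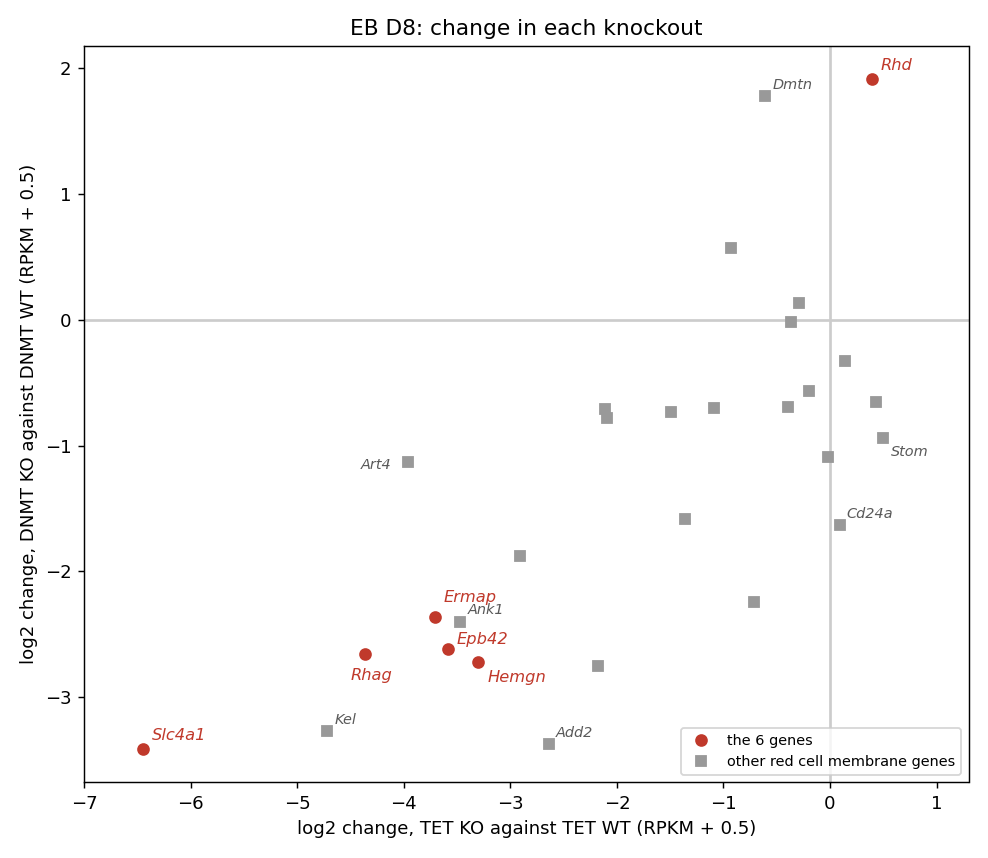
Log2 change at EB D8 in TET KO against TET WT (x axis) and in DNMT KO against DNMT WT (y axis), on the log2(RPKM + 0.5) scale, for the 6 members (red circles) and other red cell membrane genes (grey squares, some named). Slc4a1, Rhag, Ermap, Epb42 and Hemgn lie at the lower left with Kel and Ank1, and Rhd lies at the upper right.

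How far the members fell compared with these regulators depended on the member and on the scale. With the mean log2(RPKM + 0.5) of Gata1 and Klf1 subtracted in each library, only Rhd was called in DNMT KO against DNMT WT at EB D8 (5.04, where 98.3% of all genes were called higher, since most genes did not fall with Gata1 and Klf1). The others differed by -0.29 (Slc4a1), 0.46 (Rhag), 0.51 (Epb42), 0.77 (Ermap) and 0.41 (Hemgn) on the log2 scale. Without a pseudocount, Epb42 and Hemgn turned to -1.6 and -1.97.

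Ratios of RPKM per library need no pseudocount. Slc4a1 to Klf1 was 0.719 ± 0.308 in DNMT KO and 0.728 ± 0.039 in DNMT WT, and Rhag to Klf1 was 0.395 ± 0.0123 in DNMT KO and 0.319 ± 0.0917 in DNMT WT (SD, n = 3 each). Both pairs overlapped. Epb42 to Klf1 was 0.0883 ± 0.0531 in DNMT KO, with its highest library at 0.15, and 0.182 ± 0.0191 in DNMT WT, with its lowest at 0.167 (SD, n = 3 each). Slc4a1 to Gata1 did not overlap either, at 0.665 ± 0.164 in DNMT KO and 1.22 ± 0.0295 in DNMT WT (SD, n = 3 each). In TET KO the members other than Rhd held 1 to 18 reads, and there 4 of them turned direction relative to Gata1 and Klf1 without a pseudocount.

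Before EB D8 the members of DNMT KO did not run in step with those of its parent. At EB D4, 1 of 6 members was called, and it was higher in the knockout (4.51% of all genes called higher). Slc4a1 had 1.74, 1.61 and 1.43 RPKM in DNMT KO libraries, against 0.154 and 0.203 RPKM in DNMT WT. All knockout libraries were above both parental ones, with a mean 8.94-fold higher (log2 change 1.63, SE 0.16, adjusted p = 1.19e-06). At that day Slc4a1 in DNMT KO was above its own level at EB D8 (0.735 ± 0.178 RPKM, n = 3), and it was the third highest of the 28 groups, after both parents at EB D8. The DNMT KO effect minus the TET KO effect at EB D4 was 1.67 (SE 0.214, adjusted p = 1.27e-05, 5.54% of all genes called higher), a comparison added after values were seen.

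The other late members lay in the same direction at EB D4 with few reads. Rhag had 0.196, 0.196 and 0.236 RPKM in DNMT KO (17 reads), against 0.0358 and 0.0385 RPKM in DNMT WT (2 reads), a log2 change of 0.4 (SE 0.123, adjusted p = 0.0307) that is under the size asked for. Epb42 had 0.118, 0.22 and 0.102 RPKM in DNMT KO, against 0.0155 and 0.015 RPKM in DNMT WT (0.32, SE 0.128, adjusted p = 0.0954). Their groups did not overlap, and with a pseudocount of 0.1 RPKM both were called higher. Among the other lists at EB D4, 9 of 20 erythroid regulator, haem and globin genes rose and none fell in DNMT KO (4.51% of all genes called higher). Gata1 averaged 0.844 ± 0.132 RPKM in DNMT KO (n = 3) and 0.107 ± 0.00551 RPKM in DNMT WT (SD, n = 2), and Klf1 1.14 ± 0.246 RPKM and 0.196 ± 0.11 RPKM in the same order. Endothelial and haematoendothelial markers rose in 5 of 6 cases (summed level 27.8 to 30.9 RPKM in DNMT KO and 5.94 to 8.26 RPKM in DNMT WT), and their part in the Slc4a1 result was not tested.

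By EB D6 Epb42 was lower in DNMT KO, while Slc4a1 was still higher. In DNMT KO 1 member, Epb42, was called lower than in DNMT WT and 1, Rhd, higher (6.88% and 11.1% of all genes), and Slc4a1 was under the size asked for. Epb42 had 0.0172, 0.0531 and 0.0164 RPKM in DNMT KO, against 0.84, 1.08 and 0.771 RPKM in DNMT WT (log2 change -1.4, SE 0.0969, adjusted p = 6.34e-08, but -0.88 with a pseudocount of 1 RPKM, under the size asked for). Slc4a1 had 0.419, 0.372 and 0.526 RPKM in DNMT KO, against 0.0182, 0.0791 and 0.0545 RPKM in DNMT WT. It was thus higher in every knockout library, by 0.77 on the log2 scale (SE 0.0877, adjusted p = 6.77e-06), under the size asked for, and by 1.85 with a pseudocount of 0.1 RPKM. Between EB D4 and EB D6, Slc4a1 fell in DNMT KO (log2 change -1.16, SE 0.113, adjusted p = 1.21e-07, 0.321% of genes called lower), although by 0.85 only with a pseudocount of 1 RPKM.

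At EB D4 Slc4a1 was above Epb42 in DNMT WT as in DNMT KO. In DNMT WT it averaged 0.178 RPKM (20 reads), and Epb42 0.0152 RPKM (1 read). At EB D6 against EB D4 in DNMT WT, Epb42 rose (1.43, SE 0.111, adjusted p = 2.43e-10, 6.48% of genes called higher) while Slc4a1 changed by -0.3 (SE 0.126, adjusted p = 0.0559). Its Slc4a1 to Epb42 ratio was 0.0551 ± 0.0289 at EB D6 and 4.02 ± 0.46 at EB D8, and in DNMT KO it was 12 ± 4.09 at EB D4 (SD, n = 3 each). The early Epb42 level was seen in DNMT WT and not in TET WT, which had 0.0153, 0.0165 and 0.0497 RPKM at EB D6 (DNMT WT against TET WT 1.4, SE 0.0969, adjusted p = 1.3e-06, 1.22% of genes called higher). Rhag, Ermap and Hemgn at EB D6 held 7 to 17 reads over the DNMT WT libraries and 3 to 8 over the DNMT KO libraries, too few to order them. In TET KO no member was called at EB D4 or EB D6 (limma, 9.47% and 5.02% of all genes called in either direction). None had an unadjusted p under 0.05 there, and voom on recovered reads called 0 too. Members other than Rhd were at most 0.18 RPKM in those TET libraries, so limma could not call them on the log2(RPKM + 0.5) scale.

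**Figure D4:**
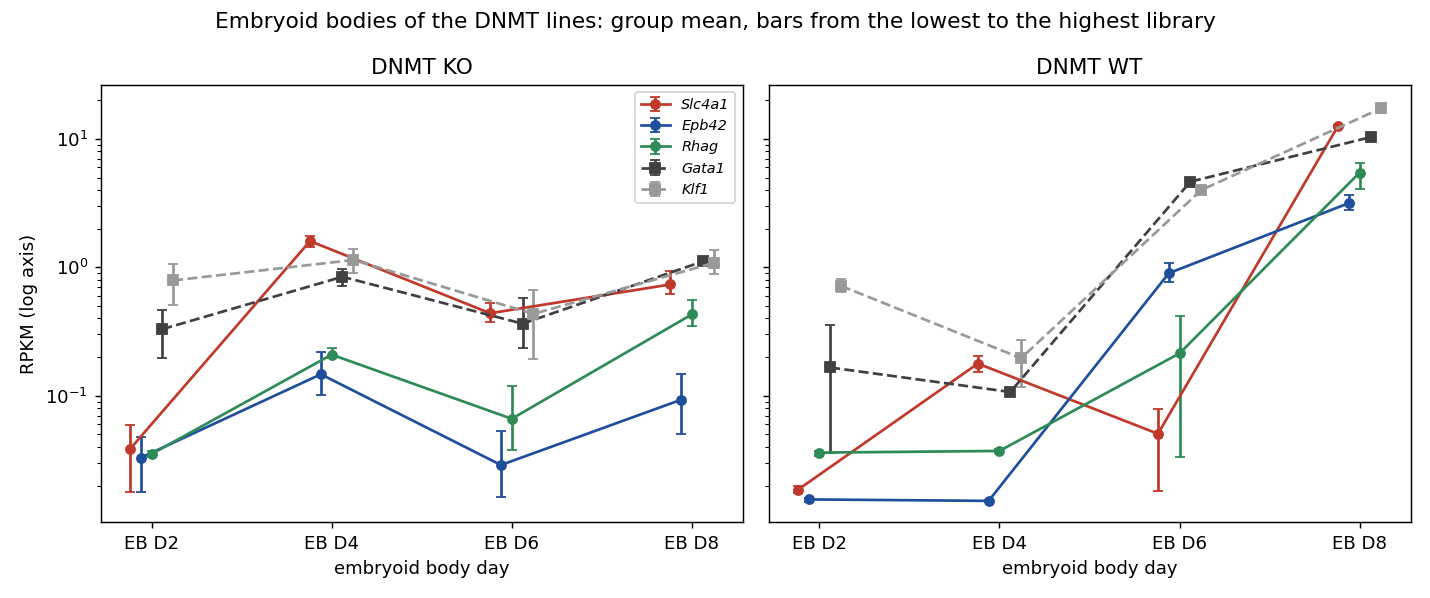
Group mean RPKM (log axis) of Slc4a1, Epb42 and Rhag, with the factor genes Gata1 and Klf1, in embryoid bodies of DNMT KO (left) and DNMT WT (right) from EB D2 to EB D8; bars run from the lowest to the highest library of a group. Slc4a1 is highest at EB D4 in DNMT KO, at 1.6 RPKM, and in DNMT WT it is below Epb42 at EB D6 and above it at EB D8.

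Rhd went its own way. It was read in all 79 libraries and reached 1 RPKM in 54 of them, and it was highest in the epiblast-like cells of all 4 lines, where no library of another member was above 0.214 RPKM. That highest value was Slc4a1 in TET KO EpiLC D2 replicate 2 (11 reads). At EpiLC D1 Slc4a1 had 0.0575, 0.0862 and 0.117 RPKM in TET KO (15 reads), against 0.0189, 0.0164 and 0.019 RPKM in TET WT (2 reads), without overlap but under the size asked for (0.18, SE 0.0658, adjusted p = 0.0429). At EpiLC D2 Rhd had 5.35, 6.5 and 7.75 RPKM in TET KO and 4.73, 6.15 and 5 RPKM in TET WT, and 6.81, 6.22 and 6.25 RPKM in DNMT KO and 6.03, 5.05 and 5.57 RPKM in DNMT WT. Against ESC D0 it rose by 2.01 in TET KO, 2.61 in TET WT, 2.11 in DNMT KO and 2.3 in DNMT WT, the largest adjusted p being 2.82e-08. No other member was called in these 4 comparisons, which were added after values were seen and in which 11.8%, 11.9%, 7.51% and 7.47% of genes were called higher. Over the 28 group means, Rhd correlated with the other members at -0.481 to -0.365, and those correlated with each other at 0.921 to 0.993 in their 10 pairs. These are Pearson coefficients that describe groups sharing lines and days. The r among the other members rest largely on TET WT and DNMT WT at EB D8, the groups where all of those members are high. By group mean Rhd was highest in TET KO EpiLC D1 (7.35 RPKM) and lowest in DNMT WT EB D6 (0.142 RPKM), and neighbours among the 7 highest groups, down to TET WT EpiLC D2 (5.29 RPKM), overlapped. For the other members TET WT EB D8 came first and DNMT WT EB D8 second, without overlap, and the third group was DNMT KO EB D4 for Slc4a1, DNMT WT EB D6 for Epb42 and DNMT KO EB D8 for Rhag, Ermap and Hemgn. The third group overlapped the fourth for Rhag, Ermap and Hemgn, and not for Slc4a1 and Epb42.

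Rhd was called higher in TET KO at EpiLC D1 and at EB D2. At EpiLC D1, where 1 member was called (3.35% of genes called higher), it had 6.41, 7.25 and 8.4 RPKM in TET KO, against 2.95, 2.41 and 2.5 RPKM in TET WT (log2 change 1.33, SE 0.11, adjusted p = 6.22e-06). TET KO and TET WT libraries did not overlap. At EB D2 it had 6.19 and 4.47 RPKM in TET KO, against 2.56, 2.23 and 1.49 RPKM in TET WT (1.17, SE 0.187, adjusted p = 0.00117, 4.7% of genes called higher). That call was lost without TET KO replicate 1 (0.96) or TET WT replicate 3 (1, just under the size asked for); the first leaves TET KO with 1 library, which is assumed to vary like the other groups. At EpiLC D2 the difference was 0.27 (SE 0.137, adjusted p = 0.13) and the groups overlapped. At ESC D0 it was 0.87 (SE 0.243, adjusted p = 0.0124), under the size asked for, from 1.25, 0.861 and 1.67 RPKM in TET KO and 0.777, 0.187 and 0.461 RPKM in TET WT. There no member was called by limma (6.78% of genes called in either direction) and voom on recovered reads called 1. In DNMT KO against DNMT WT, Rhd was also higher in every library at EpiLC D1 (0.68, SE 0.123, adjusted p = 0.00998), below the size asked for.

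Before EB D4 no member was called in DNMT KO by limma at ESC D0, EpiLC D1, EpiLC D2 or EB D2 (1.03%, 0.95%, 1.59% and 1.14% of genes called in either direction). Voom called 0 in each, and Rhd at EpiLC D1 was the 1 case with an unadjusted p under 0.05. In TET KO at EpiLC D2 limma and voom called 0 members and none had an unadjusted p under 0.05 (7.9% of genes called in either direction).

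Between EB D4 and EB D6 Rhd fell in TET KO, TET WT and DNMT WT, and was not called in DNMT KO. At EB D6 against EB D4 it changed by -1.9 in TET KO (SE 0.229, adjusted p = 4.47e-07), by -1.64 in TET WT (SE 0.229, adjusted p = 2.23e-06) and by -1.86 in DNMT WT (SE 0.256, adjusted p = 2.62e-06), comparisons in which 5.56%, 6.19% and 6.35% of genes were called lower. In DNMT KO it changed by 0.02 (SE 0.229, adjusted p = 0.979). The DNMT KO effect minus the TET KO effect at EB D6 was called for Epb42 (-1.36, SE 0.137, adjusted p = 3.14e-06, 9.79% of genes called lower) and for Rhd (2.13, SE 0.29, adjusted p = 4.39e-05, 10.7% called higher). At EB D6 Rhd had 1.75, 3.01 and 2.67 RPKM in DNMT KO, against 0.112, 0.146 and 0.167 RPKM in DNMT WT, a 17.5-fold higher mean (log2 change 2.19, SE 0.205, adjusted p = 1.14e-06). At EB D8 it had 2.09, 2.87 and 1.53 RPKM in DNMT KO, against 0.0592, 0.407 and 0.158 RPKM in DNMT WT, 10.4-fold higher (1.91, SE 0.216, adjusted p = 4.5e-06). On both days the DNMT KO libraries stood clear of all others of that day. In TET KO at EB D8 it had 0.527, 0.617 and 1.02 RPKM, against 0.459, 0.336 and 0.46 RPKM in TET WT, which did not overlap but missed the test (0.39, SE 0.216, adjusted p = 0.14).

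ES cell markers were higher in DNMT KO embryoid bodies on both days on which Rhd was, while markers of epiblast-like cells were higher at EB D8 and lower at EB D6. Nanog, Pou5f1, Esrrb, Zfp42 and Klf4 summed to 559 to 575 RPKM in DNMT KO and 29.5 to 31.6 RPKM in DNMT WT at EB D8, and to 107 to 133 RPKM in TET KO and 35.4 to 37.1 RPKM in TET WT, none of the 5 being at 0. At EB D6 they summed to 602 to 640 RPKM in DNMT KO and 86.5 to 90.2 RPKM in DNMT WT, and to 22.7 to 27.6 RPKM in TET KO and 48.3 to 60.5 RPKM in TET WT. Fgf5, Pou3f1, Otx2 and Dnmt3b, a gene deleted in DNMT KO, summed at EB D8 to 51.2 to 56.7 RPKM in DNMT KO and 31.3 to 32.6 RPKM in DNMT WT, and to 106 to 134 RPKM in TET KO and 19.7 to 26.9 RPKM in TET WT, where Rhd was not called. At EB D6 the same genes summed to 69.7 to 71.9 RPKM in DNMT KO and 76.7 to 84.7 RPKM in DNMT WT. Their part in the Rhd result was not tested. The genes most like Rhd over the 28 group means were Pla2g10, a secreted phospholipase (r = 0.947), Odc1, the ornithine decarboxylase of polyamine synthesis (0.939), and Slc25a32, the mitochondrial folate carrier (0.939), none of them in the lists of red cell genes. Pla2g10 averaged 4.52 ± 0.602 RPKM in DNMT KO and 0.373 ± 0.134 RPKM in DNMT WT at EB D8, and 21.6 ± 1.49 and 21.2 ± 0.724 RPKM in the same order at EpiLC D2 (SD, n = 3 each). Of the genes beside Rhd, Maco1 was also higher in DNMT KO at EB D8, by a smaller fold than Rhd. It averaged 16.2 ± 0.976 RPKM in DNMT KO and 12.4 ± 0.388 RPKM in DNMT WT. Tmem50a was lower in DNMT KO at EB D8, with 35.5 ± 1.8 RPKM against 63.4 ± 3.77 RPKM in DNMT WT.

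The genes most like the other members over the 28 group means included several red cell genes. For Slc4a1 they were Hbb-bs (0.973), Ank1, the ankyrin that ties band 3 to spectrin (0.965), and Ache, the acetylcholinesterase found on red cells (0.958). Epb42 was most like Ifi27l2b (0.993) and Trim10, an erythroid ring-finger protein (0.990). Rhag was most like Fmod (0.993), Ank1 (0.991) and the platelet tubulin Tubb1 (0.989), Ermap like Lrrc17 (0.996), Ank1 (0.996) and Hsd3b1 (0.994), and Hemgn like the globins Hba-a2 (0.997) and Hbb-bh2 (0.996) and like Tff3 (0.994). These r describe groups that share lines, days and libraries. They rest largely on TET WT and DNMT WT at EB D8, so any gene high only in those groups would come close to these members. Ank1 was among the top 3 for Slc4a1, Rhag and Ermap, and averaged 0.0665 ± 0.0294 RPKM in TET KO and 5.79 ± 0.272 RPKM in TET WT, and 0.088 ± 0.0306 RPKM in DNMT KO and 2.61 ± 0.246 RPKM in DNMT WT at EB D8 (SD, n = 3 each).

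Markers of other blood, vessel and embryoid body cells differed as well at EB D8. Megakaryocyte markers summed to 3 to 3.96 RPKM in TET KO and 19.4 to 27.3 RPKM in TET WT, and to 8.04 to 8.92 RPKM in DNMT KO and 14.4 to 15.3 RPKM in DNMT WT, with Pf4, Gp9 and Gp6 at 0 in TET KO and Gp9 in DNMT KO. Myeloid and leukocyte markers summed to 2.24 to 4.18 RPKM in TET KO and 7 to 8.13 RPKM in TET WT, and to 8.13 to 10.4 RPKM in DNMT KO and 14.6 to 15.6 RPKM in DNMT WT, with Ptprc at 0 in TET KO. Endothelial and haematoendothelial markers summed to 40.2 to 49.2 RPKM in TET KO and 77.8 to 93.4 RPKM in TET WT, and to 75.9 to 76.6 RPKM in DNMT KO and 107 to 109 RPKM in DNMT WT. These summed levels were lower in both knockouts, as the members other than Rhd were. Endoderm markers (Afp, Ttr, Apoa1 and Foxa2) summed to 25.5 to 29 RPKM in TET KO and 450 to 492 RPKM in TET WT, and to 32.7 to 39.8 RPKM in DNMT KO and 293 to 306 RPKM in DNMT WT. Cardiac markers (Tnnt2, Myl7, Actc1 and Nkx2-5) went opposite ways, with 153 to 226 RPKM in TET KO and 37.8 to 45.8 RPKM in TET WT, and 9.77 to 13.1 RPKM in DNMT KO and 108 to 167 RPKM in DNMT WT. The part of these cells in the members' falls was not tested.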

How the data were processed

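Trim Galore 0.6.1, cutadapt 1.18, HISAT2 2.1.0 and the build GRCm38 are named in the submitters' processing notes; per the labels' protocols, libraries were stranded and made by oligo-dT pulldown. How reads were counted is not given in the sources used here. As values, the authors deposited log2 RPKM per gene and library, a scale read from the table's name and checked on its values. Reads were recovered from the steps between low values: taking 0.9 reads where there was none, and GENCODE M21 exon lengths, 99.9% of values up to 20 reads were whole within 0.1. Recovered depth was 7.76 to 13.9 M reads (median 11.2). Of values from 1 to 19 reads 82.5% were odd, so reads may not be independent fragments, and counting intervals (exact, Clopper-Pearson) cover counting error only.

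Groups came from the labels; 1 column (DNMT WT, EpiLC D1) matched only its group. Replicate pairs (74) had a chi-square per gene of at least 2.16, so none was taken as 1 library deposited in duplicate. Of 35269 entries, 39 with a repeated identifier were left out. Genes reaching 1 RPKM in 2 or more libraries were fitted as log2(RPKM + 0.5) with limma 3.58.1 (R 4.3.3; trend, robust), over the 4 genotypes at the conditions compared, with Benjamini-Hochberg adjustment over 15267 genes. The fit was first tested on simulated data. Alternatives were other pseudocounts, no filter, median centring, quantile normalization, voom on recovered reads, a replicate block, only the groups compared, and leaving out each library. The members and lists were chosen with earlier results of these data known. Named genes were the members, up to 4 called genes of a list with the largest change, Gata1, Klf1, Epor and Hbb-bh1, and the 3 genes most like each member by Pearson r; 2 genes of the lists are not reported here by name. Promoter windows are from RefSeq (GRCm38.p6), which matched 5 of 6 members. Of 39 comparisons, 5 were added after values were seen.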

Additional observations from a re-analysis of the deposited data

Results flagged for a closer look

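The effects of the 2 knockouts differed for several members, by a test of the difference itself (limma, DNMT KO effect minus TET KO effect, n = 2 or 3 libraries a group). At EB D4 it was 1.67 for Slc4a1 (adjusted p = 1.27e-05), which was higher in DNMT KO than in DNMT WT in 3 of 3 libraries, while in TET KO and TET WT the libraries overlapped.

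At EB D6 the difference was -1.36 for Epb42 (adjusted p = 3.14e-06), which had come up in DNMT WT and in no other line, and 2.13 for Rhd (adjusted p = 4.39e-05), which stayed up in DNMT KO.

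At EB D8 it was 3.03 for Slc4a1 (adjusted p = 1.22e-08), 1.7 for Rhag (adjusted p = 3.86e-05), 1.52 for Rhd (adjusted p = 0.000835) and 1.35 for Ermap (adjusted p = 2.74e-06). Slc4a1, Rhag and Ermap were lower in all libraries of both knockouts, so for them the difference is one of size. Most of it lay between the parents (DNMT WT against TET WT -2.01 for Slc4a1, -0.9 for Rhag and -1.13 for Ermap).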

How the results depend on the processing

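At EB D8 the counts of members called in each knockout against its parent were the same under every alternative run: 5 for TET KO and 6 for DNMT KO, also with the replicate block. The replicate numbers did not pair the samples: deviations of same-numbered libraries correlated at -0.241 to 0.289 (median 0.0045, 36 pairs), and in 0 of 9 comparisons with 3 pairs did all exceed 0.1. The block changed no count of members called. Over the 6 members, 3437 values kept their side of the threshold, 72 gained a call, 27 lost one and 10 reversed. A change of sign counted as reversed only where the value was called in the main or the alternative run. The causes were not tested.

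TET KO against TET WT at ESC D0 called 0 members, but 1 with a pseudocount of 0.1 RPKM, 1 without pseudocount and 1 with voom, and 0 to 1 leaving out 1 library (1 without TET KO replicate 2 or TET WT replicate 1). At EpiLC D1 the count of 1 became 2 without pseudocount and 2 with voom, and at EpiLC D2 the count of 0 became 1 without pseudocount. At EB D2 it was 1, and 0 to 1 leaving out 1 library.

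DNMT KO against DNMT WT at EB D4 called 1, against 3 with 0.1 RPKM, 3 without pseudocount and 4 with voom; at EB D6 it called 2, against 1 with 1 RPKM. The difference between knockout effects called 2 at EB D6 and 1 with 1 RPKM, and at EB D4 1, against 2 with 0.1 RPKM, without pseudocount and with voom. DNMT WT against TET WT called 1 at EB D6, against 0 with 1 RPKM and 2 with voom, and 2 at EB D8, against 1 without pseudocount.

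EB D8 against ESC D0 called 0 in TET KO, against 1 without pseudocount and with voom. In DNMT KO it called 1, against 3 with 0.1 RPKM, 0 with 1 RPKM, 4 without pseudocount, 0 with median centring, 0 with quantile normalization and 5 with voom. EB D8 against EB D6 called 0 in TET KO, against 1 with 0.1 RPKM and 2 without pseudocount and with voom, and 0 in DNMT KO, against 1 with 0.1 RPKM, 2 without pseudocount and 1 with voom. EB D6 against EB D4 called 1 in DNMT KO, against 0 with 1 RPKM and 2 with voom, and 2 in DNMT WT, against 1 with 1 RPKM and 4 without pseudocount and with voom. EpiLC D2 against ESC D0 in TET WT called 1, against 2 without pseudocount and with voom.

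Relative to Gata1 and Klf1 nearly all genes shift, so the counts say little about the members: the median over all genes was 2 in TET KO and 2.48 in DNMT KO at EB D6 (members 1.94 and 2.4), and 5.02 and 3.14 at EB D8 (members 1.26 and 0.49). TET KO called 6 at EB D6 (3 with voom) and 5 at EB D8, 4 higher and 1, Slc4a1, lower (3 with 0.1 RPKM, 3 without pseudocount, 1 with voom), and DNMT KO called 6 at EB D6 (3 with voom) and 1 at EB D8 (2 with 1 RPKM, 3 without pseudocount, 2 with quantile normalization). Values there reversed without pseudocount to -1.59 for Epb42 in DNMT KO at EB D6, to -1.55 (Epb42), -1.22 (Rhag), -0.34 (Ermap) and -0.17 (Hemgn) in TET KO at EB D8, and to -1.6 (Epb42) and -1.97 (Hemgn) in DNMT KO at EB D8. With voom they reversed to -1.73 for Epb42 in DNMT KO at EB D6 and to -1.72 (Epb42) and -0.35 (Hemgn) in TET KO at EB D8.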
